A study of Mus musculus with 6 samples.

Results

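The 3 control knockdown (KD) libraries of the series were described on their own, as a picture of the transcriptome that MIN6 cells have before any gene of interest is lowered. They are 3 of 6 RNA-seq libraries and were chosen by their label alone, and the 3 libraries of the knockdown arm were not used. MIN6 cells come from a mouse insulinoma and stand in for pancreatic beta cells in many studies. Per the labels, the cells had been given a control ASO (an antisense oligonucleotide), so they are treated controls and not untouched cells. No genotype, passage or time after treatment is given. The labels number the libraries as replicates 1 to 3 without saying that they came from separate cultures, so the spread given below (SD, n = 3 throughout) may be partly technical. Library totals were 22463557, 23624880 and 28693863 counts, spread over 23284 gene symbols. With 1 group there is no contrast, and nothing below is a test.

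A beta cell makes, stores and releases insulin. Glucose enters through a membrane transporter, is metabolised, and the resulting ATP closes a potassium channel (the KATP channel), which opens calcium channels and sets off the release of granules. The granules also hold islet amyloid polypeptide, granins and the enzymes that cut prohormones. A small set of transcription factors, with PDX1, NKX6-1, MAFA, NEUROD1 and PAX6 among them, keeps the insulin genes active and the genes of other islet cells silent. Mice have a pair of insulin genes, Ins2, which is the counterpart of the human gene, and Ins1, a copy made by retroposition.

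The insulin genes are shown first because a read can be credited to one of them only where they differ. Their coding sequences, of 330 bases in Ins2 and 324 in Ins1, were identical in 300 of 330 aligned columns (90.9%). The stretch of 60 coding bases that differs most starts at the start codon and holds 10 differing bases, which are in capitals. It lies at chr7:149865379-149865438 on the minus strand for Ins2 and at chr19:52339114-52339173 on the plus strand for Ins1 (NCBIM37, the build also called mm9), in a coding exon of each gene.
Ins2: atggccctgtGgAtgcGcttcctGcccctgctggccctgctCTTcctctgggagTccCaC
Ins1: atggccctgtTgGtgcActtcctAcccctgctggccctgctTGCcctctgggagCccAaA
The longest run that they share is 54 coding bases, at chr7:149864621-149864674 in Ins2 and chr19:52339384-52339437 in Ins1.
Ins2 and Ins1: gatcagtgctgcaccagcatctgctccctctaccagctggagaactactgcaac
Of all 31-base words in their exons, 6.2% for Ins2 and 5.0% for Ins1 occur more than once in the genome. How the authors' counting treated reads with several possible origins is not given in the sources used here, so the division between these genes carries that uncertainty while their sum carries less of it.

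The 5 genes that mark the cell type were all abundant. Ins2 was at 16429, 17102 and 14405 CPM (the count over the library total times 1000000) in replicates 1 to 3. Ins1 was at 6329, 6691 and 5979 CPM, and Iapp, which encodes islet amyloid polypeptide, at 8658, 8503 and 7946 CPM. All 3 hormone genes were lowest in replicate 3. Pdx1, the homeobox factor needed to form the pancreas and to keep beta cells mature, was at 391, 340 and 334 CPM. Nkx6-1, a homeobox factor that holds the beta cell programme against the alpha cell programme, was at 345, 276 and 296 CPM. Both factor genes were highest in replicate 1. Together Ins1 and Ins2 took 2.23% ± 0.175 of all counts.

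Promoter sequence was available for Ins1 and Iapp, 2 of the 3 hormone genes, and is shown because their transcripts are among the most abundant. Each line holds the 250 bases before the start site in the RefSeq table (build GRCm38.p6), on the plus strand, at chr19:52264047-52264296 for Ins1 and chr6:142298175-142298424 for Iapp. Capitals mark TAAT, the core bound by homeodomain proteins such as PDX1 and NKX6-1, and CATCTG, an E box of the kind bound by NEUROD1 with its partners, each searched on both strands with overlaps allowed.
Ins1: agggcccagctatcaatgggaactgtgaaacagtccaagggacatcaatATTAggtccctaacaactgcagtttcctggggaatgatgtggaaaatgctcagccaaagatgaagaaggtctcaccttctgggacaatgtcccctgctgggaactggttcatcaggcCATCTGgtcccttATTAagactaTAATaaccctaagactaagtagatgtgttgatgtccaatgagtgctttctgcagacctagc
Iapp: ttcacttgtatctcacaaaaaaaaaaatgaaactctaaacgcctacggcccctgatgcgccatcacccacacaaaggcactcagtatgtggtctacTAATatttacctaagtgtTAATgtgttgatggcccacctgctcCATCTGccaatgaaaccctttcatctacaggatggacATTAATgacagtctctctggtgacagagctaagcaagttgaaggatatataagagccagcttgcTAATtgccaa
The Ins1 window held 3 matches to TAAT and 1 to CATCTG, and the Iapp window 5 and 1. In Iapp a pair of TAAT matches on opposite strands overlap, which gives the capitals ATTAAT. Of 32851 windows of this length in the table, 54.9% held TAAT (30.8% held 2 matches or more), 14.4% held CATCTG and 8.9% held both. A match is a string of letters and not a measured binding site.

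Of the 23284 symbols, 12084 (51.9%) reached 1 CPM or more in all 3 libraries, and such a gene is called detected below. A further 4759 (20.4%) had a count but fell short of that, and 6441 (27.7%) had 0 counts in all 3. A count of 0 allows up to 3 counts, or 0.105 to 0.134 CPM depending on the library, counting error only. Most counts came from genes of moderate level. Genes with a mean of 100 to 1000 CPM numbered 2621 and held 54.7% of the counts, those of 10 to 100 CPM numbered 7060 and held 30.2%, and the 50 genes above 1000 CPM held 13.9%. The 10 highest genes held 7.34% ± 0.155 and the 100 highest 17.9% ± 0.216, and it took 1224 to 1248 genes to reach 50% of the counts. The libraries were close to each other, with Pearson r of 0.9990 to 0.9991 between pairs (log2 of CPM + 1, across genes, which are not independent replicates). They still differed by more than counting noise, with a chi-square per gene of 3.46 to 8.39 between pairs, so none is a copy of another.

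The 10 genes that took the most counts included hormone, granin, growth factor, calcium pump and lipid synthesis genes. After Ins2 (15979 ± 1404 CPM) came Igf2, an imprinted growth factor gene, at 9975, 9606 and 10002 CPM. Chga, which encodes chromogranin A of the granule core, stood at 9021, 9261 and 9371 CPM, and Iapp at 8369 ± 374 CPM. Scg2, the granin secretogranin II, was at 6768 ± 222 CPM and Ins1 at 6333 ± 356 CPM. Atp2a2, the calcium pump of the endoplasmic reticulum, followed at 5833, 6071 and 6266 CPM. Ero1lb, an oxidase that drives disulfide bond formation in proinsulin, was at 3838 ± 110 CPM, ahead of the lipid synthesis genes Scd2 (3677 ± 160 CPM) and Acly (3225 ± 104 CPM). The 6 granin genes Chga, Chgb, Scg2, Scg3, Scg5 and Vgf took 1.96% ± 0.0427 of the counts, a share close to that of the insulin genes together. The sum of Ins1, Ins2, Iapp, Chga and Scg2 came to 4.67% ± 0.186.

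**Figure D1:**
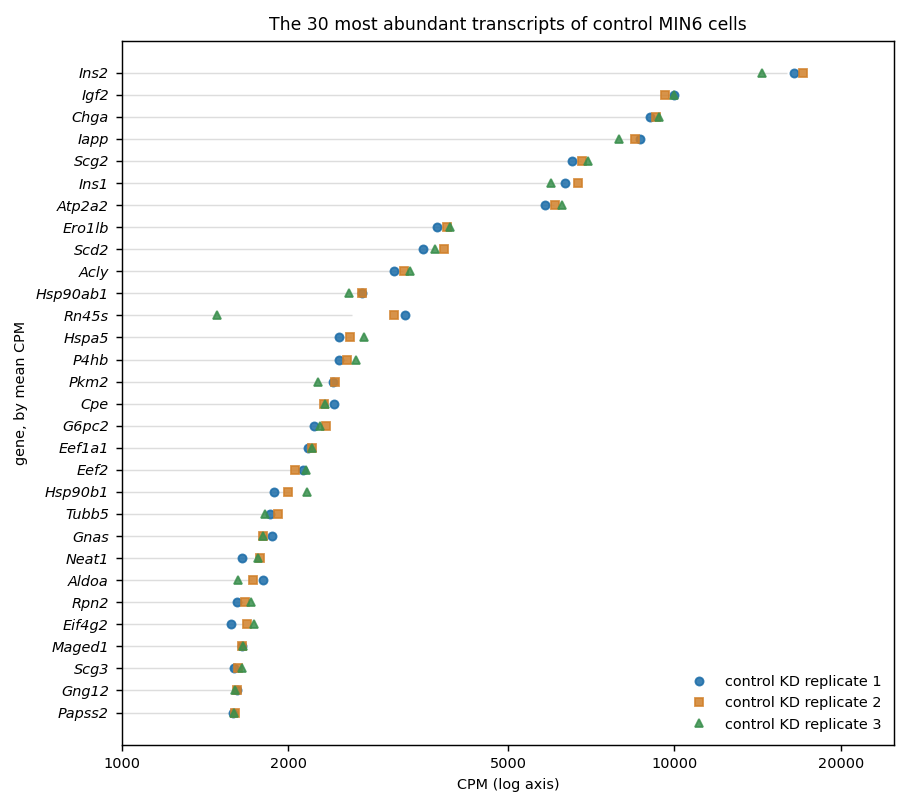
CPM (log axis) of the 30 genes with the highest mean, 1 point per control KD library. The libraries lie close together for most genes, with Rn45s lower in replicate 3 (1487 CPM) than in replicates 1 and 2 (3250 and 3106 CPM).

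Places 11 to 30 were held by genes of various roles. The chaperone genes Hsp90ab1 (2675 ± 82.2 CPM), Hspa5 (2600.1 ± 138 CPM, the BiP chaperone of the endoplasmic reticulum) and Hsp90b1 (2017 ± 141 CPM) were among them, with P4hb, a protein disulfide isomerase, at 2558 ± 90.9 CPM and Rpn2, of the oligosaccharyltransferase, at 1667 ± 47.8 CPM. Pkm2 (2367 ± 91.6 CPM) and Aldoa (1718 ± 89.8 CPM) are glycolytic enzymes. Cpe, the carboxypeptidase that trims prohormones, was at 2363 ± 53.4 CPM, Scg3 at 1625 ± 29.1 CPM, and G6pc2, the islet glucose-6-phosphatase, at 2288 ± 55.7 CPM. The translation factors Eef1a1 (2195 ± 21.9 CPM), Eef2 (2112 ± 47.8 CPM) and Eif4g2 (1666 ± 79.2 CPM), the tubulin gene Tubb5 (1862 ± 53.3 CPM), the G protein genes Gnas (1823 ± 38.9 CPM) and Gng12 (1611 ± 6.91 CPM), Maged1 (1654 ± 4.36 CPM) and Papss2 (1597 ± 6.32 CPM) completed the protein-coding genes. Neat1, the long noncoding RNA of paraspeckles, stood at 1652, 1782 and 1766 CPM. Rn45s, the ribosomal RNA precursor, stood at 3250, 3106 and 1487 CPM, the widest spread of the 30.

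A long transcript gives more reads than a short one at the same number of molecules, so the level of one gene is set against that of another as CPM per kilobase of annotated exon, and an order given in CPM is an order of counts taken. On that scale Ins2 led with 19727 ± 1733, and the highest library of any other gene was Iapp in replicate 1 at 8890. Iapp followed with 8592 ± 384, then Ins1 with 6234 ± 350, Chga with 4898 ± 95.0 and Scg2 with 2724 ± 89.2, and these 5 did not overlap in any pair of libraries. Npy, the gene of neuropeptide Y, rose to the sixth place with 2186 ± 178 CPM per kilobase, above Igf2 at 1795 ± 40.3. Cck, the gene of the gut hormone cholecystokinin, had 1373 ± 145 CPM per kilobase, G6pc2 1159 ± 28.2, Cpe 1132 ± 25.6 and Atp2a2 1067 ± 38.2. The metallothionein genes Mt2 (1130 ± 164) and Mt1 (1126 ± 168) were in the same range, and both were lowest in replicate 3. D430020J02Rik and Mir682 also entered the first 20, but on annotated exons of only 39 and 96 bases, so their values per kilobase are not reliable. By this measure the insulin genes made up 7.97% of the summed level, against 2.23% of the counts.

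The hormone list held 23 genes, of which 8 were detected (34.8%, against 51.9% of all symbols). The products of beta cells led it. Npy was at 1310, 1279 and 1122 CPM and Cck at 1307, 1093 and 1094 CPM. Per kilobase, Npy was the higher of the pair in every library. Gcg, the glucagon gene of alpha cells, was present at 66.9, 70.0 and 76.0 CPM, which is 47.5 ± 3.11 CPM per kilobase. Sst, the somatostatin gene of delta cells, had 3, 0 and 0 counts, and Ppy, the pancreatic polypeptide gene, stayed at 0.267 ± 0.0510 CPM. Ucn3, a hormone that marks mature beta cells in the mouse, reached only 3.29, 3.34 and 2.54 CPM, a value picked out after it was seen.

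Of 25 genes of beta cell transcription factors, 23 were detected (92%, against 51.9% of all symbols). Their median was 90.8 CPM. Pax6, a paired-box factor needed for insulin and glucagon expression, was the highest by counts, at 591, 616 and 546 CPM. Neurod1, a basic helix-loop-helix factor that activates the insulin promoter, stood at 439, 441 and 425 CPM. Mlxipl, the glucose-responsive factor ChREBP, followed at 379 ± 13.4 CPM, and Insm1, a zinc finger factor of endocrine cells, at 275 ± 26.0 CPM. Mafa, which marks mature beta cells, ran at 247, 179 and 206 CPM. Per kilobase the order was another one, with Mafa at 195 ± 31.9, Neurod1 at 159 ± 3.27, Nkx6-1 at 90.7 ± 10.5, Insm1 at 88.9 ± 8.40, Pdx1 at 82.2 ± 7.23, Mlxipl at 70.7 ± 2.49 and Pax6 at 29.5 ± 1.78. The ranges of Nkx6-1, Insm1 and Pdx1 overlapped between libraries. Within each library Pdx1 was the lowest of these, Nkx6-1 and Insm1 exchanged places, and Mafa lay above Neurod1. The annotated exons of Pax6 sum to 19833 bases, which lowers its place on that scale, and 27.9% of those bases overlap exons of other genes. Those of Mafa sum to only 1080, against 2729 for Neurod1, 3368 for Nkx6-1 and 4318 for Pdx1, which raises the place of Mafa. By counts Mafa, at a mean of 211 CPM, lay below Neurod1 (435), Pdx1 (355) and Nkx6-1 (305). Its first place per kilobase thus depends on the annotated length, and whether that model is complete was not tested.

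The factors of the list that were not detected were Nkx6-3, at 0.0257 ± 0.0226 CPM, and Tcf7l2, which had 0 counts in every library. Tcf7l2 encodes a Wnt pathway factor whose human counterpart is a diabetes locus. Its relatives were also near 0, as chosen after their values were seen, with Tcf7 at 0.478 ± 0.0402 CPM, Tcf7l1 at 0.0232 ± 0.0402 CPM and 1 count of Lef1 in all, while Ctnnb1, the beta-catenin gene on which these factors depend, was at 561 ± 16.2 CPM.

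**Figure D2:**
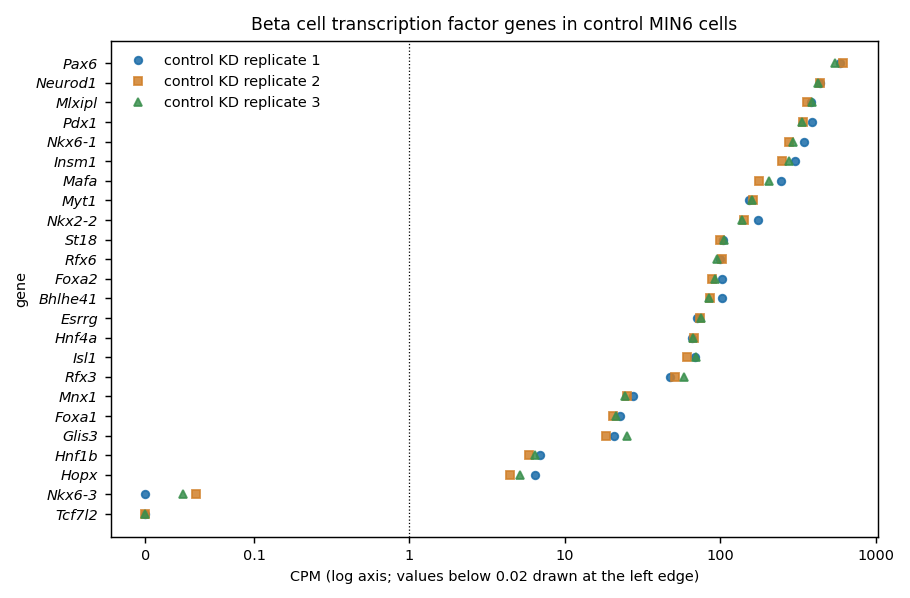
CPM (log axis) of 24 of the 25 beta cell transcription factor genes, 1 point per control KD library, with the 1 CPM level as a dotted line. The points of 22 genes lie to the right of the line, and those of Nkx6-3 and Tcf7l2 lie to its left.

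Of 39 genes of beta cell function, 37 were detected (94.9%, against 51.9% of all symbols), with a median of 316 CPM. Dlk1, at 0.0522 ± 0.0152 CPM, and Nptx2, with 0 counts, were the exceptions. The glucose sensing genes Slc2a2, G6pc2, Abcc8 and Kcnj11 were all among those detected. Slc2a2, the GLUT2 glucose transporter, was at 312, 320 and 318 CPM. G6pc2 was at 1159 CPM per kilobase. Abcc8 and Kcnj11, which encode the subunits of the KATP channel, were at 143 ± 8.40 and 37.2 ± 0.836 CPM per kilobase. Among receptors that adjust secretion, picked out after their values were seen, Glp1r stood at 256 ± 20.1, Gipr at 55.8 ± 4.10 and the fatty acid receptor gene Ffar1 at 78.8 ± 2.49 CPM. Among granule genes Slc30a8, the zinc transporter that loads zinc for insulin crystals, was at 467, 484 and 463 CPM and the prohormone convertase genes Pcsk1 at 466, 503 and 547 CPM and Pcsk2 at 934, 950.1 and 950.4 CPM. Slc17a9, a vesicular nucleotide transporter gene, was at 11.7 ± 1.62 CPM. Gad1 and Gad2, the glutamate decarboxylase genes, were low, at 1.60 ± 0.259 and 6.43 ± 0.485 CPM.

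Alpha cell genes gave a mixed result, with 11 of 17 detected (64.7%, against 51.9% of all symbols). Gcg was detected, at 71.0 ± 4.65 CPM, and per kilobase it stood at 47.5 where Ins2 stood at 19727. Per kilobase Slc38a5 (687 ± 54.1) and Ttr (627 ± 31.2) were the highest members of the list, followed by Gc (52.7 ± 1.66), Gcg and Slc7a2 (45.0 ± 0.962). By counts Slc38a5, an amino acid transporter gene, was at 1439, 1509 and 1675 CPM, Ttr, the transthyretin gene, at 797, 774 and 723 CPM, and Slc7a2, a cationic amino acid transporter gene, at 411 ± 8.79 CPM. Dpp4 was at 114 ± 3.96 CPM, Etv1 at 87.8 ± 9.80 CPM and Gc, the vitamin D binding protein gene, at 87.8 ± 2.76 CPM. Irx1 was at 0.0282 ± 0.0489 CPM, and Pou3f4 and Fap had 0 counts.

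Of 16 genes of delta, PP and epsilon cells, 5 were detected (31.2%). None of the 3 that define those cells was among them, since Sst and Ppy were below 1 CPM and Hhex, a factor of delta cells, had 0 counts. The detected members were Ptger1 (46.4 ± 4.42 CPM), Acsl1 (28.2 ± 1.72 CPM), Casr (27.6 ± 2.93 CPM), Etv5 (24.2 ± 3.87 CPM) and Rbp4 (13.6, 11.2 and 11.1 CPM). Of 21 endocrine progenitor genes, 8 were detected (38.1%). Neurog3, the factor that starts the endocrine programme in the embryo, and Sox9, a factor of pancreatic progenitors and ducts, had 0 counts, as did Onecut1, Gata6, Ptf1a, Aldh1a3 and Cdkn1c. Sox4, which acts downstream of Neurog3, was at 47.6, 43.0 and 35.9 CPM, although 54.6% of its exon bases overlap exons of other genes. Onecut2 was at 142 ± 10.4 CPM, Sox11 at 68.9 ± 1.78 CPM and Hes6 at 58.6 ± 5.75 CPM. Over the 6 islet lists with each gene counted once, 90 of 135 genes were detected (66.7%), against 51.9% of all symbols.

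Over the 18 other lists, each gene counted once, 83 of 302 genes were detected (27.5%, against 51.9% of all symbols, the share beside which the counts of the single lists below stand). Of the 47 defining markers of other lineages 7 were detected, among them Cd68, Cdx2, Pomc, Snap25, Ttr and Vil1, and 18 had 0 counts. Of 21 acinar genes of the exocrine pancreas 2 were detected. The enzyme genes Cpa1, Prss1 and Amy2a5 had 0 counts. Of the 31-base exon words of Prss1 67.9% occur more than once in the genome, as do all of those of Amy2a5 and none of those of Cpa1, and the part of this in their counts was not tested. Cela1 had 1.33 ± 0.242 CPM, and Bhlha15, a factor of secretory cells that acinar cells also use, had 47.2 ± 5.86 CPM. Of 15 duct genes 5 were detected, with Prom1 at 247 ± 20.6 CPM and Krt7 at 235 ± 7.87 CPM, while Sox9 and Cftr had 0 counts and Krt19 had 0.0257 ± 0.0226 CPM. Mesenchyme had 1 of 17 genes detected (Tagln, 1.91 ± 0.490 CPM), with Vim, Col3a1, Dcn and Fn1 at 0 counts and Col1a1 at 0.336 ± 0.0213 CPM. The summed level of those 17 genes was 3.34 to 3.69 CPM. No gene of the erythroid list (11 genes) or of the kidney and thyroid list (14 genes) was detected.

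**Figure D3:**
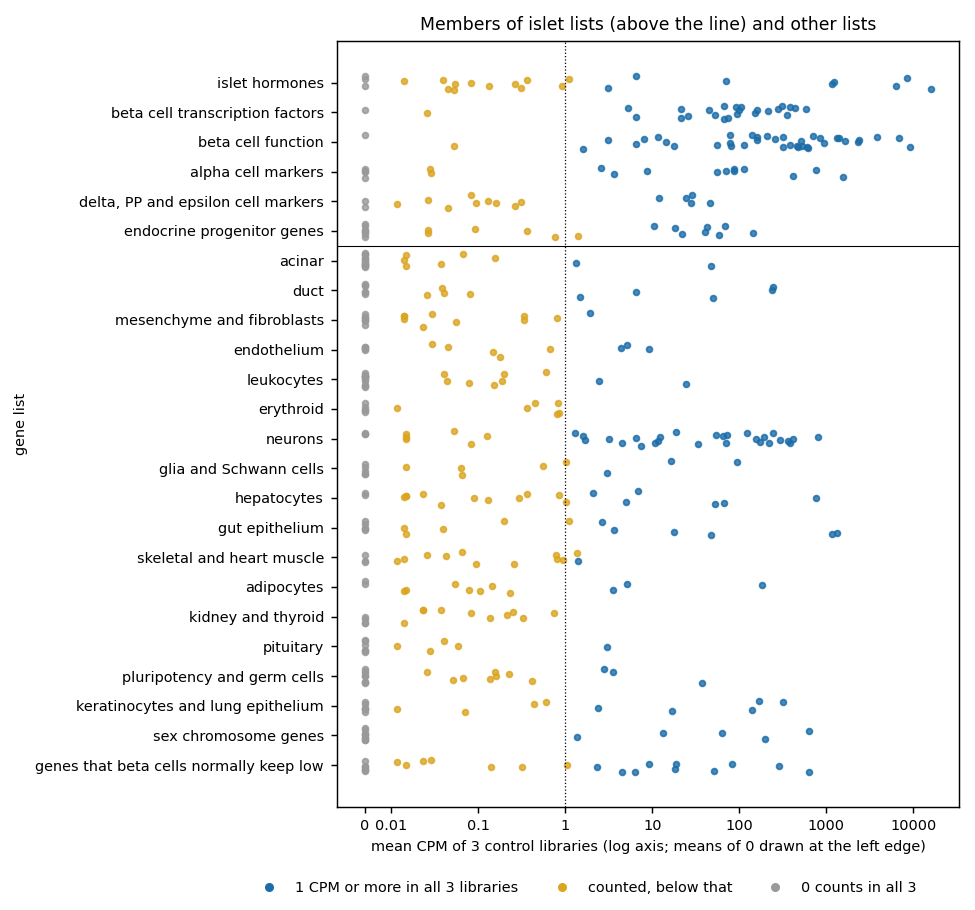
Mean CPM (log axis) of every gene of the 6 islet lists (above the line) and the 18 other lists, 1 point per gene, coloured by whether it was detected. Beta cell factors and function lie almost wholly to the right of the dotted 1 CPM line, and most other lineages to its left, with the neuron list as the exception.

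Leukocyte genes were detected in 2 of 20 cases. C1qa, a complement gene of macrophages, was at 27.6, 24.4 and 22.0 CPM while C1qb, the subunit gene that macrophages express with it, had 0 counts. Ptprc, the gene of the pan-leukocyte antigen CD45, and Cd3e had 0 counts, and Cd68 was at 2.46 ± 0.0135 CPM. Of 13 endothelial genes 3 were detected, led by Esam at 9.22 ± 0.446 CPM, with Cdh5 at 0 counts. Of 15 genes of keratinocytes and lung epithelium 5 were detected (33.3%) and 6 had 0 counts. Among those detected were Cdh1 at 319 ± 7.60 CPM, Krt8 at 168 ± 1.91 CPM, Epcam at 140 ± 7.46 CPM and Krt18 at 17.0 ± 0.802 CPM. The keratinocyte genes Krt14 and Trp63 had 0 counts.

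Neuronal genes were the exception among other lineages, with 27 of 36 detected (75.0%, against 51.9% of all symbols). Beta cells are known to share the release machinery and several structural genes with neurons. Nefm and Nefl, which encode neurofilament chains, stood at 822, 790 and 762 CPM and at 437, 403 and 391 CPM. Their annotated exons overlap those of other genes for 19.2% and 32.8% of their bases. Dcx, a microtubule-binding protein gene of migrating neurons, stood at 335, 367 and 438 CPM, lowest in replicate 1. The enzymes of catecholamine synthesis were present up to dopamine, with Th (tyrosine hydroxylase) at 378, 365 and 357 CPM and Ddc (the aromatic amino acid decarboxylase) at 294 ± 8.03 CPM. The enzyme genes of the next steps were near or at 0, with Dbh at 0.0148 ± 0.0257 CPM and Pnmt at 0 counts. Syp was at 244 ± 8.04 CPM and Snap25, which takes part in granule fusion, at 187, 194 and 201 CPM. Rbfox3, the NeuN gene of mature neurons, was at 0.0829 ± 0.0750 CPM. The summed level of the neuron list was 3677 to 3743 CPM.

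Some other lists held a few high members beside members near or at 0. Detected were 3 of 13 glial, 6 of 19 hepatocyte, 6 of 16 gut, 3 of 12 adipocyte and 3 of 19 pluripotency and germ cell genes. Mbp, the myelin basic protein gene, was at 94.4 ± 1.25 CPM, while the glial genes Sox10 and Gfap were at 0 counts and 0.0148 ± 0.0257 CPM. In the hepatocyte list Ttr (765 ± 38.1 CPM), Hnf4a (67.0 ± 0.992 CPM) and Apob (43.8, 48.2 and 65.0 CPM) were detected, and Alb, the albumin gene, was at 0.0895 ± 0.0476 CPM. In the gut list Chgb and Cck, also islet genes, led, with Tff3 at 47.8 ± 3.96 CPM and the intestinal factor gene Cdx2 at 2.67 ± 0.229 CPM. Lpl, the lipoprotein lipase gene, was at 181 ± 6.78 CPM with Adipoq at 0.0141 ± 0.0244 CPM. Lin28b, an RNA-binding protein gene of embryonic cells, was at 36.8 ± 1.92 CPM with Nanog at 0 counts. The 8 Y-linked genes of the lists had 0 counts, and Xist was at 1.36 ± 0.181 CPM.

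Mature beta cells are known to keep some common genes low, and 10 of 23 such genes were detected (43.5%, against 51.9% of all symbols). Ldha, the lactate dehydrogenase A gene, stood at 656, 662 and 577 CPM and Oat at 285 ± 11.1 CPM. Slc16a1, which encodes the monocarboxylate transporter MCT1, was at 50.5, 52.7 and 50.1 CPM. Hk1, the gene of the high-affinity hexokinase I, was low, at 6.39 ± 0.204 CPM, and Hk2, Cxcl12, Acot7, Arhgdib, Itih5 and Maf had 0 counts.

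The choice among related genes was read as each member's share of its family's summed CPM per kilobase, over 89 families with 439 listed members, of which Nkx1-1 was not analysed here. Of the members, 260 were detected and 76 had 0 counts in all libraries. Of all symbols, 51.9% were detected and 27.7% had 0 counts. In 27 families the leading member held 90% or more, in 46 it held 50% to 90%, and in 16 it held less than 50%. The SD printed with a share is the spread between libraries and does not cover the choice of length. The ranges of the leading and the next member overlapped between libraries in 3 families, the IP3 receptors (Itpr3 and Itpr1), the INK4 inhibitors (Cdkn2c and Cdkn2a) and the insulin receptor substrates (Irs2 and Irs1). Within each library the leading member was the higher one in all 3 families, and each family changed leader in at least 1 of the other length definitions tried.

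**Figure D4:**
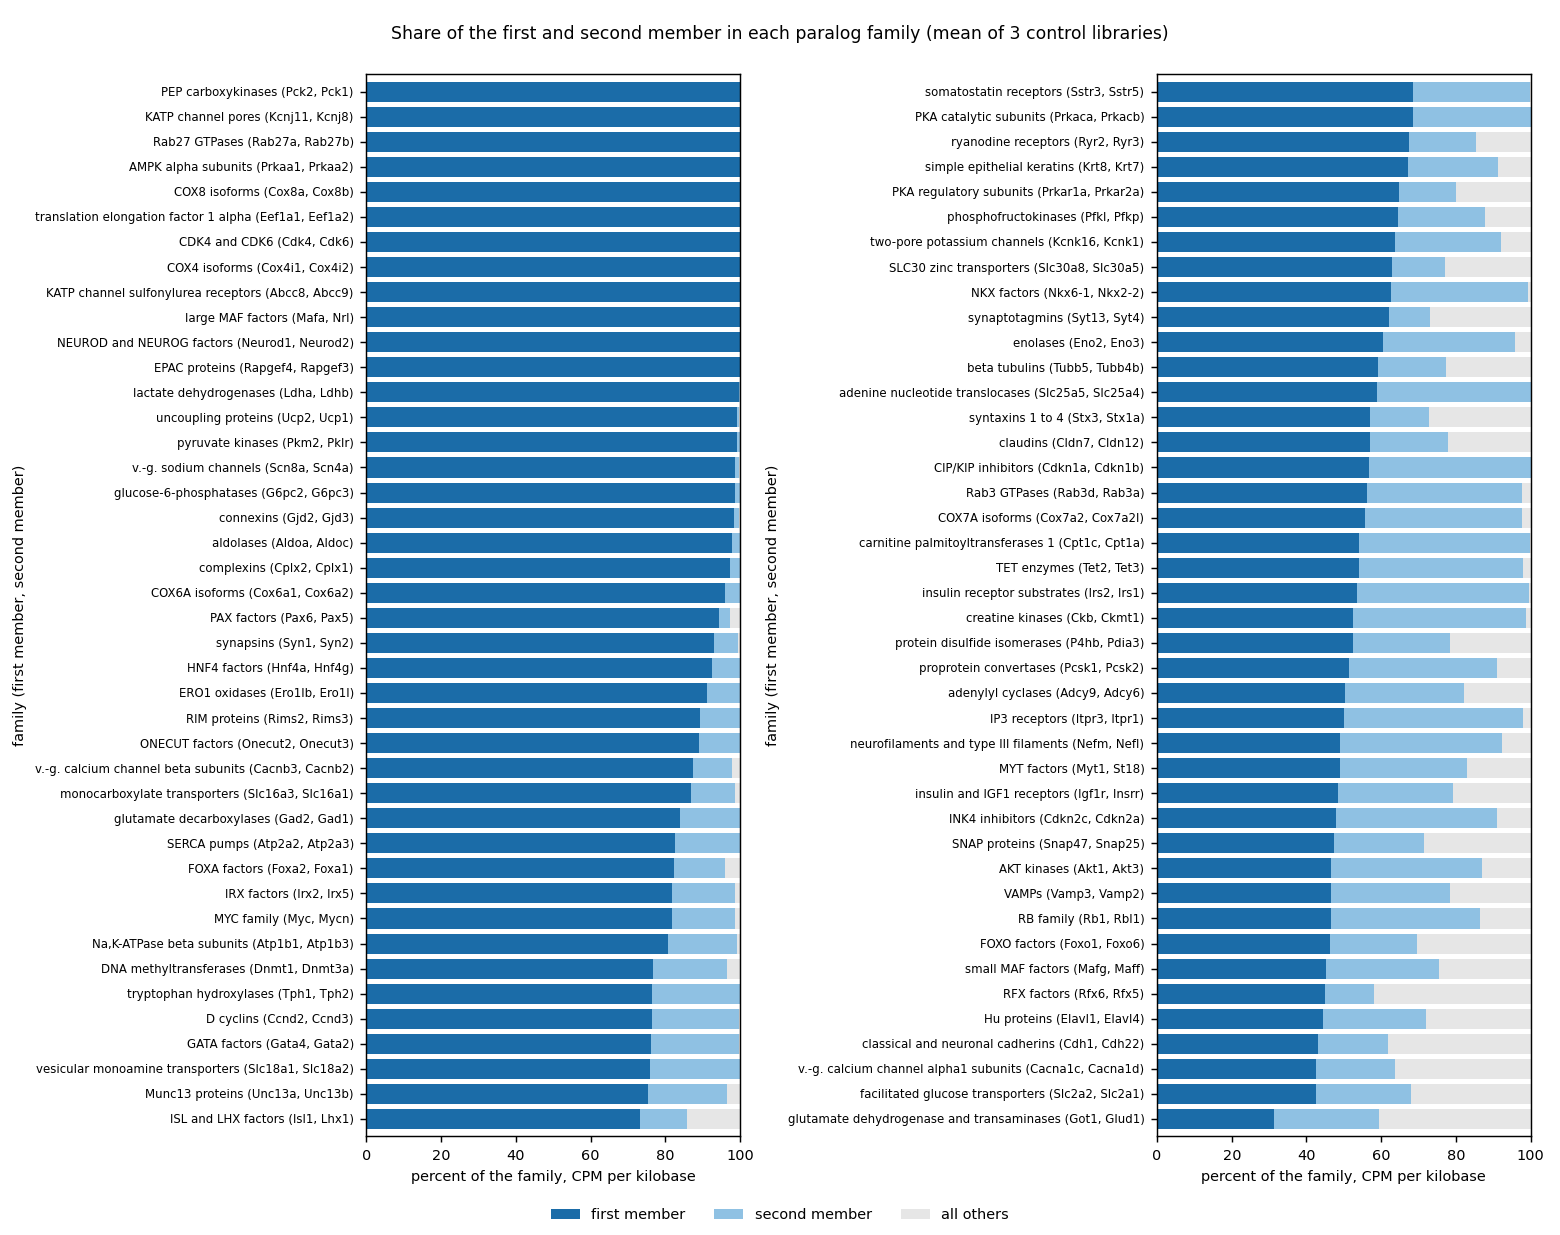
Share of the leading member (dark), the next member (light) and all others (grey) in each of 84 of the 89 families, as percent of summed CPM per kilobase, mean of 3 libraries. Families run from a single member that held close to 100% (PEP carboxykinases) to a leading member at 31.4% (Got1, of the glutamate dehydrogenase and transaminases, a lead that passed to Glud1 with the coding length and without length).

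In glucose metabolism several families rested on 1 member. G6pc2 held 98.8% ± 0.0654 of the glucose-6-phosphatases, with the ubiquitous G6pc3 at 1.24% ± 0.0648 and 1 count of the liver gene G6pc in all. Aldoa held 97.8% ± 0.152 of the aldolases, Pkm2 99.1% ± 0.0804 of the pyruvate kinases and Ldha 99.7% ± 0.0223 of the lactate dehydrogenases. Of the PEP carboxykinases, the mitochondrial Pck2 stood at 46.8 CPM per kilobase, and the cytosolic Pck1 had 0 counts. Slc16a3, the transporter MCT4 that exports lactate, held 87.0% ± 0.511 of the monocarboxylate transporters, with Slc16a1 at 11.7% ± 0.573. Glucose transporters were more evenly divided, with Slc2a2 at 42.5% ± 1.24, Slc2a1 (GLUT1) at 25.6% ± 2.60 and the fructose transporter Slc2a5 at 21.9%, 22.6% and 23.9% in replicates 1 to 3. Slc2a1 ran at 221, 199.9 and 173 CPM, highest in replicate 1. Phosphofructokinase was led by the liver type gene Pfkl at 64.6% ± 0.636, before Pfkp at 23.1% ± 0.745.

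Of the 4 listed enolase genes, forms known from other tissues led. Eno2, the neuronal form, held 60.4% ± 2.78 and Eno3, the muscle form, 35.3% ± 2.34, while the ubiquitous Eno1 held 0.908% ± 0.145, with 19, 18 and 29 counts. The symbol Gm5506, a separate entry outside the listed family, had 142 ± 10.7 CPM, and 93.2% of its exon words occur elsewhere in the genome. Per kilobase it stood at 80.6 ± 6.07 CPM against 0.162 ± 0.0235 for Eno1. The enolase shares leave it out, so the lead of Eno2 holds among the listed genes only. Some other genes of high level in most cells were also low. Gapdh stood at 9.76 ± 0.855 CPM and Ppia at 3.52, 3.51 and 3.83 CPM. Of their exon words 53.5% and 21.4% occur more than once in the genome, as do 25.8% for Eno1. Genes with such shares were also among the high ones. Actb was at 728 ± 28.4 CPM with 26.5% repeated words and Hspa8 at 662 ± 11.2 CPM with 43.5%. Eef1a1, at 2195 CPM, had 58.6%, and Pkm2, at 2367 CPM, had 63.7%. The 84 ribosomal protein genes took only 0.718% of the counts. Over all protein-coding genes, 2.90% of the detected ones and 19.3% of those with no counts had 50% or more repeated words. Among ribosomal protein genes the order was another one. The 22 genes with 50% or more repeated words had a median of 38.9 CPM per kilobase, and 61 genes below that 14.9. For proteasome subunit genes the medians were 35.7 (2 genes) and 52.2 (38 genes). The levels of Eno1, Gapdh, Ppia and the ribosomal protein genes are given as counted, and the part of repeated sequence in them was not tested.

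Ion channel families ranged from 1 sole member to a mix. Kcnj11 was the sole pore gene of the KATP channel with a count, at least 623-fold above Kcnj8 per kilobase when Kcnj8 is set at 3 counts per library. Abcc8 held all but 0.00825% ± 0.00408 of the sulfonylurea receptors. Calcium channel alpha1 genes were spread, with the L-type genes Cacna1c at 42.7% ± 0.518 and Cacna1d at 20.9% ± 0.428, and the N-type gene Cacna1b at 17.6% ± 0.0822. The beta subunit gene Cacnb3 held 87.5% ± 0.194. Among sodium channels Scn8a held 98.8% ± 0.475, while Scn1a, Scn2a1, Scn3a and Scn9a had 0 counts. Atp2a2 held 82.7% ± 0.400 of the SERCA pumps with Atp2a3 at 17.2% ± 0.397. Ryanodine receptors were close to 0, with Ryr2, their leading member, at 0.0278 CPM per kilobase.

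Families of the release machinery were in part divided among members and in part not. Syt13 led the synaptotagmins with 62.0% ± 0.861, ahead of Syt4 at 10.9% ± 0.621 and Syt7, a calcium sensor of insulin release, at 6.30% ± 0.136. Syt13 ran at 1065, 1049 and 1053 CPM. Stx3 led syntaxins 1 to 4 with 57.1% ± 0.486, before Stx1a at 15.7% ± 0.390. Vamp3 held 46.6% ± 0.843 and Vamp2 31.9% ± 1.29 of the VAMPs, with Vamp8 at 14.5% ± 0.426, while Vamp7, which had no matched length, had 0 counts. Unc13a held 75.5% ± 0.985 of the Munc13 genes, Rims2 89.2% ± 0.613 of the RIM genes and Cplx2 97.4% ± 0.315 of the complexins. Rab27a stood at 63.4 CPM per kilobase with Rab27b at 0 counts, and the Rab3 genes were divided between Rab3d (56.3% ± 1.94) and Rab3a (41.3% ± 1.73). Slc30a8 held 62.9% ± 0.389 of 10 zinc transporter genes. Pcsk1 and Pcsk2 held 51.4% ± 1.84 and 39.5% ± 1.45 of the convertases, an order that turned when length was taken from the longest transcript, from the coding sequence or not at all. The order of Snap47 (47.3% ± 0.182) and Snap25 (24.2% ± 0.380) turned with the coding length and without length.

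Several transcription factor families rested on 1 member. Of the large MAF genes Mafa was detected, while Maf had 0 counts and Nrl held 0.0177% ± 0.0117. Neurod1 likewise stood almost alone, the next member Neurod2 at 0.0184% ± 0.00851. Pax6 held 94.5% ± 0.281 of the PAX genes, with Pax5 at 2.81% ± 0.600 and Pax4, a beta cell factor of development, at 2.27% ± 0.863. Pax1, Pax3, Pax7 and Pax9 had 0 counts. Nkx6-1 and Nkx2-2 shared the NKX family, at 62.7% ± 1.28 and 36.5% ± 1.27. Foxa2 held 82.2% ± 0.509 of the FOXA genes and Hnf4a 92.5% ± 0.180 of the HNF4 genes. Isl1 held 73.3% ± 1.30, with Lhx1 at 12.4% ± 0.432. Gata4 led the GATA genes with 76.1% ± 1.46, and Gata6, its partner in pancreas formation, had 0 counts. Rfx6 led the RFX genes with 44.9% ± 2.39 and Myt1 the MYT genes with 49.0% ± 0.893. The low family IRX was led by Irx2 at only 1.11 CPM per kilobase.

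Signalling and cell cycle families had both patterns. Rapgef4, the EPAC2 gene that carries the cAMP signal in beta cells, held 99.9% ± 0.0530 against Rapgef3, and Prkaa1 was the AMPK alpha gene with counts while Prkaa2 had 0. Adcy9 (50.4% ± 0.751) and Adcy6 (31.9% ± 0.838) led the adenylyl cyclases. Among somatostatin receptors Sstr3 held 68.6% ± 1.56 and Sstr5 31.3% ± 1.55. Igf1r held 48.5% ± 2.13 and the insulin receptor gene Insr 20.8% ± 0.700, with Insrr between them at 30.7% ± 1.43. Igf2, whose product binds the receptors encoded by Igf1r and Insr, was at 1795 CPM per kilobase, and Igf1 had 0 counts. Igf2r, which clears IGF2, was at 49.8 ± 5.29 CPM per kilobase (470 ± 49.9 CPM). Ccnd2 held 76.4% ± 2.78 of the D cyclins and Ccnd1 only 0.254% ± 0.0204, and Cdk4 was at 89.6 CPM per kilobase where Cdk6 was at 0.00397. Of genes used in dividing cells, picked out after their values were seen, Mki67 was at 681, 765 and 807 CPM and Top2a at 773, 847 and 837 CPM, which is 74.6 ± 6.36 and 90.3 ± 4.42 CPM per kilobase. Cdkn1a held 56.8% ± 1.70 and Cdkn1b 43.2% ± 1.70, an order that turned with the coding length and without length, and the imprinted Cdkn1c had 0 counts. H19 and Meg3, which are also imprinted, had 0 counts beside Igf2, Peg3 at 540 ± 35.7 CPM and Nnat at 612 ± 38.4 CPM.

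Adhesion, cytoskeleton and mitochondrial families followed. Gjd2, the connexin 36 gene that couples beta cells, held 98.5% ± 0.465 of 17 connexin genes, and Gja1, the most widely used connexin, had 0 counts. Cldn7 led the claudins with 56.9% ± 1.84. Cdh1 held 43.2% ± 1.36 of the cadherins, before Cdh22 at 18.7% ± 1.34. Of the intermediate filament genes, Nefm and Nefl took 49.0% ± 0.494 and 43.4% ± 0.647, and Vim had 0 counts. Tubb5 held 59.2% ± 0.664 of the beta tubulins. The ubiquitous isoforms Cox4i1, Cox6a1 and Cox8a led their families. Cox4i1 ran at 190.1, 180.1 and 172 CPM, Cox6a1 at 263, 252 and 242 CPM and Cox8a at 303, 262 and 233 CPM, all lowest in replicate 3, and Cox8b had 0 counts. Eef1a1, at 881 CPM per kilobase, stood against 0.0123 for Eef1a2, a form of neurons and muscle. Ero1lb held 91.2% ± 0.882 against Ero1l.

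Large gene groups of specialised tissues were almost without counts. Of 1123 olfactory receptor symbols 2 were detected, and of 335 vomeronasal receptor, 40 HOX and 28 kallikrein symbols none, against 51.9% of all symbols. Of groups that most cells use, 17 of 17 ATP synthase subunits, 38 of 40 proteasome subunits, 78 of 84 ribosomal proteins and 7 of 9 chaperonin CCT subunits were detected. A kinetochore gene, picked out after its value was seen, lies beside a highly expressed neighbour. Spc25 was at 1237, 1299 and 1189 CPM, which is 389 ± 17.3 CPM per kilobase, and its partner in the NDC80 complex, Spc24, was at 27.5 ± 3.51 CPM per kilobase. The annotated model of Spc25 lies 4878 bases from that of G6pc2 on chromosome 2. Spc25 is on the minus strand and G6pc2, at higher coordinates, on the plus strand, so the models point away from each other. Of the exon bases of Spc25, 0.0% overlap exons of other genes. Whether reads of G6pc2 transcripts were counted for Spc25 was not tested.

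The controls differed little for most genes. Among 8215 genes with a mean of 20 CPM or more the median coefficient of variation was 4.04%, where counting alone gives 2.48%. For 74 genes of the islet lists above that level it was 4.61% against 1.49%. In 21 genes the variation beyond counting was over 20%, and in 3 over 30%. The widest were Lars2, a mitochondrial leucyl-tRNA synthetase gene, at 574, 410 and 222 CPM, Rn45s at 3250, 3106 and 1487 CPM, and Ppp1cc at 36.0, 21.5 and 21.9 CPM. The 10 widest, which also took in Xlr3b, Scand1, Zfp771, Junb, Cox5b, Rps2 and Hspa1b, were all highest in replicate 1. Repeated words made up 88.5% for Xlr3b, 69.7% for Cox5b, 68.5% for Hspa1b, 64.4% for Ppp1cc and 43.6% for Rps2. For Lars2 they made up 7.1%, for Scand1, Zfp771 and Junb 0.0%, and Rn45s had no value. The part of repeated sequence in the spread was not tested. Without replicate 2 the count of 21 genes became 53, and without replicate 1 or 3 it was 21 or 23.

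Level also moved with gene length between the libraries. Each gene was set against its own geometric mean over the libraries (the mean of log2 CPM). Genes with under 1 kilobase of exon (195 genes) had median differences of 3.99%, 3.05% and -6.91% from it in replicates 1 to 3. Genes with over 8 kilobases (1087 genes) had -2.38%, -0.64% and 3.14%. Several short transcripts named above shared the low value in replicate 3. Ins2, with 810 bases of exon, Iapp with 974, Ins1 with 1016, Npy with 566 and Mt2 with 556 were all lowest in replicate 3. Cck, with 848, was not, at 1093 CPM in replicate 2 and 1094 CPM in replicate 3. Atp2a2, with 5674 bases, was highest there. The size of this shift was small beside that of Rn45s or Lars2, and its source was not tested.

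**Figure D5:**
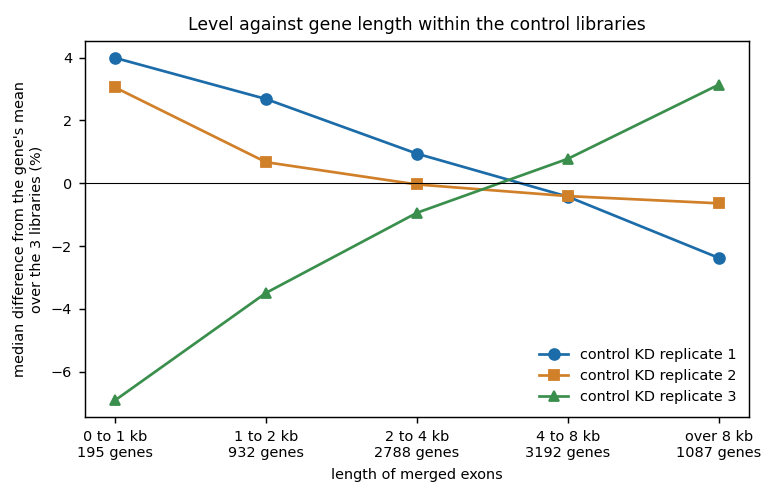
Median difference of a gene's level from its own geometric mean over the 3 libraries (percent), by length of its merged exons, for genes with a mean of 20 CPM or more, 1 line per control KD library. Replicate 3 runs from -6.91% for the shortest genes to 3.14% for the longest, and replicate 1 runs the other way.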

How the data were processed

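RNA from MIN6 cells was extracted with an RNeasy kit and made into libraries with a TruSeq RNA kit, per the labels' protocols. The authors deposited raw read counts per gene symbol, 1 table per library, with no rows for unassigned reads. CASAVA 1.8.2, HISAT2, HTSeq, DESeq2 and the build mm9 are named in the submitters' processing notes. Annotation, strand setting and treatment of reads with several origins were not given in the sources used here. Only the 3 control KD tables were used.

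CPM was the count over the library total times 1000000. Exon lengths and positions came from GENCODE M1 (NCBIM37, which is mm9), matching 21897 symbols by name and 107 by synonym, while 1280 (5.50%) had no match. Merged exons gave the length for CPM per kilobase. The share of 31-base exon words found more than once in the genome measured repeated sequence. TMM factors came from edgeR 4.0.16 in R 4.3.3, other values from Python 3.11.15 with pandas 2.3.3. The word count and the spread measure were tested on simulated data. The 3 libraries have 22.5 to 28.7 counts at 1 CPM.

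The named genes were the 30 highest by CPM, the 20 highest by CPM per kilobase, the 3 defining markers and up to 6 highest members of each list, the 3 highest members and those at 0 counts of each family, the 10 widest spreads and Pax6. The members, lists and families were chosen with earlier results of these data known. Genes named outside that rule, the symbol groups, the repeated-word measure, the length classes, the bounds of 20%, 30%, 50% and 90%, the motifs and the insulin comparison were chosen after values were seen. Alternatives changed the detection level, scaling, length definition, spread filter and library set. Spi1, Map2, Muc2 and Nkx1-1 were not analysed here. Some other genes and families that the rule names are not reported here.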

Additional observations from a re-analysis of the deposited data

How the results depend on the processing

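No paired analysis was possible because the result comes from no test: only 1 group was described. Setting detection at 0.5 or 5 CPM, at 10 counts or at a mean of 1 CPM, or scaling by TMM, gave 10535 to 12812 detected genes, 84 to 94 of the islet lists and 58 to 99 of the other lists. On CPM per kilobase the 10 highest genes held 15.3% in place of 7.34%, and the insulin genes 7.97% in place of 2.23%, since short transcripts gain on that scale. With a mean of 5 CPM or more, 58 genes varied by over 20% beyond counting in place of 21. Leaving out 1 library gave 21 to 53 such genes, with 53 without control KD replicate 2; the cause was not tested. It gave 12133 to 12138 detected genes, 7.26% to 7.41% for the 10 highest, 2.16% to 2.33% for insulin and 27 to 28 families with a leading member at 90% or more. Of 89 families, 4 had another leading member with the longest transcript as length, and 13 each with the coding sequence or with no length. Of 267 family alternatives, only 60 stayed within 1 SD of the main value, so most shares depend on the length definition by more than their printed SD. Leaving out a library changed the leader in 0. TMM moved no named gene by over 0.391%. Depth limits the low genes: 1 CPM is 22.5 to 28.7 counts.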
